A study of Macaca mulatta with 30 samples.

Results

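Secretory IgA is made by a plasma cell and an epithelial cell working in sequence, and the 9 genes described here cover both sides. They are PIGR, CCL28, JCHAIN, MZB1, TNFRSF17, POU2AF1, CCR10, CD79A and MS4A1, taken as a list of names from the 21292 genes of a kallisto abundance table, and all 9 were present. Expression was measured by RNA sequencing in frozen sections of parotid, submandibular and sublingual salivary gland, pancreas and liver of 6 rhesus macaques (Macaca mulatta), with 1 library per tissue and animal and 30 in all. Animals 1 to 4 were female and animals 5 and 6 male. The series was designed around amylase expression and compares tissues within animals. No treatment, age or genotype is given in the labels, and the parotid library of animal 3 is labelled as the right gland where the other parotid libraries are labelled left.

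Plasma cells in the connective tissue of a gland secrete dimeric IgA, whose subunits are tied together by the J chain that JCHAIN encodes. The epithelial cell takes the dimer up at its base with the polymeric immunoglobulin receptor, encoded by PIGR, carries it across the cell and cuts the receptor at the lumen, so that part of the receptor stays on the antibody as secretory component. CCL28 is a chemokine that mucosal and glandular epithelium releases, and CCR10 is its receptor on IgA plasmablasts. MZB1 is an endoplasmic reticulum protein that assists antibody secretion, TNFRSF17 encodes BCMA, a survival receptor of plasma cells, and POU2AF1 is a coactivator of immunoglobulin transcription. CD79A is the signalling partner of the B cell receptor and MS4A1 encodes CD20, which B cells carry and plasma cells lose.

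The values are TPM, kallisto's relative transcript abundance, a level corrected for transcript length and scaled to the same total in every library, so the read depth behind a value is unknown and a rise of a few abundant genes lowers all others. The submandibular and pancreas libraries of animal 4 stood apart from the other 5 of their tissue. Summed salivary secretory markers were 2182 TPM in that submandibular library against 223237 to 335689 TPM in the other 5, and summed acinar markers were 2280 TPM in that pancreas library against 110336 to 208858 TPM. Both carried high fat and blood marker sums, at 9940 and 20860 TPM for fat and 5848 and 6004 TPM for blood. The sublingual library of animal 4 had a secretory sum of 5308 TPM against 36644 to 363355 TPM in the other sublingual libraries, and the highest epithelial marker sum of all libraries, 1531 TPM. Skeletal muscle markers reached 90528 TPM in the parotid library of animal 6 and 26529 TPM in the sublingual library of animal 5. Some results are also given without the submandibular and pancreas libraries of animal 4, or without its sublingual library, where the call changes. Not every such change is given. The parotid library of animal 6 and the sublingual library of animal 5 were left out only together with other libraries.

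PIGR, the epithelial receptor (NCBI gene 694638), was highest in the sublingual gland. Its level there was 42.1, 194, 212, 13.6, 562 and 78.8 TPM in animals 1 to 6, a mean of 184 ± 202 TPM (SD, n = 6). The submandibular level ran from 2.50 through a median of 47.0 to 99.6 TPM, and the lowest value was that of animal 4, 21.2 TPM being the next. All 18 libraries of parotid, pancreas and liver were at or below 19.5 TPM, with medians of 3.71, 1.72 and 8.11 TPM. The sublingual values did not overlap those of parotid or pancreas, and overlapped those of liver only through animal 4.

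Differences between tissues were tested with limma on log2(TPM + 1), with animal as a block, over the 13550 genes that reached 1 TPM in at least 6 libraries. Adjustment followed Benjamini and Hochberg, separately for every tissue pair, and 0.05 was the threshold. PIGR was higher in sublingual gland than in pancreas by 4.97 ± 0.66 on the log2 scale (SE, limma adjusted p = 3.7e-06), and higher in 6 of 6 animals. It was also higher in sublingual gland than in liver, by 3.76 ± 0.66 (adjusted p = 5.2e-05), and lower in parotid than in sublingual gland, with a difference of -4.46 ± 0.66 (adjusted p = 2.8e-05). Submandibular gland exceeded pancreas by 3.28 ± 0.66 (adjusted p = 0.0011) and liver by 2.06 ± 0.66 (adjusted p = 0.012), each in 5 of 6 animals. The difference from liver lost its call without animal 1 (1.71, adjusted p = 0.082) and without animal 3 (1.56, adjusted p = 0.098).

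The order of PIGR levels was therefore sublingual, submandibular, liver, parotid and pancreas, and several neighbours in that order did not separate. Submandibular and sublingual gland differed by -1.69 ± 0.66 with an adjusted p of 0.056, although PIGR was lower in the submandibular library of all 6 animals. That difference was -0.35 when the 100 most abundant genes were left out of the total, and it passed the threshold without the sublingual library of animal 4 (-2.13, adjusted p = 0.017). Parotid and submandibular gland differed by -2.77 ± 0.66 (adjusted p = 0.074), and by -3.21 ± 0.61 (adjusted p = 0.0091) without the submandibular and pancreas libraries of animal 4. Liver, parotid and pancreas showed no difference in PIGR past the threshold, at -0.70, 0.51 and -1.22 for parotid against liver, parotid against pancreas and pancreas against liver. The last of these passed without the same 2 libraries of animal 4 (-1.55, adjusted p = 0.040).

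CCL28, the epithelial chemokine (NCBI gene 574221), was ordered by median as sublingual, submandibular, parotid, liver and pancreas. Its sublingual level was 24.3, 268, 339, 7.63, 254 and 112 TPM in animals 1 to 6, with animals 1 and 4 low as for PIGR. Submandibular levels were 32.9, 57.2, 78.2, 1.74, 56.2 and 67.5 TPM, so that 5 libraries lay close together and animal 4 stood far below them. Parotid had a median of 3.81 TPM, pancreas 1.50 TPM and liver 2.90 TPM. CCL28 was higher than in pancreas by 4.84 ± 0.63 in sublingual gland (limma adjusted p = 3.0e-06) and by 3.44 ± 0.63 in submandibular gland (adjusted p = 0.00045), in 6 of 6 animals each. Against liver the differences were 4.45 ± 0.63 (adjusted p = 2.6e-06) and 3.05 ± 0.63 (adjusted p = 0.00031). Between submandibular and sublingual gland it was -1.40 ± 0.63 (adjusted p = 0.095), which became -1.88 (adjusted p = 0.022) without the sublingual library of animal 4 and -0.05 when the 100 most abundant genes were left out of the total. Parotid was below submandibular gland by a difference of -2.66 ± 0.63 (adjusted p = 0.073) and of -3.16 ± 0.60 (adjusted p = 0.0090) without the 2 libraries of animal 4.

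**Figure D1:**
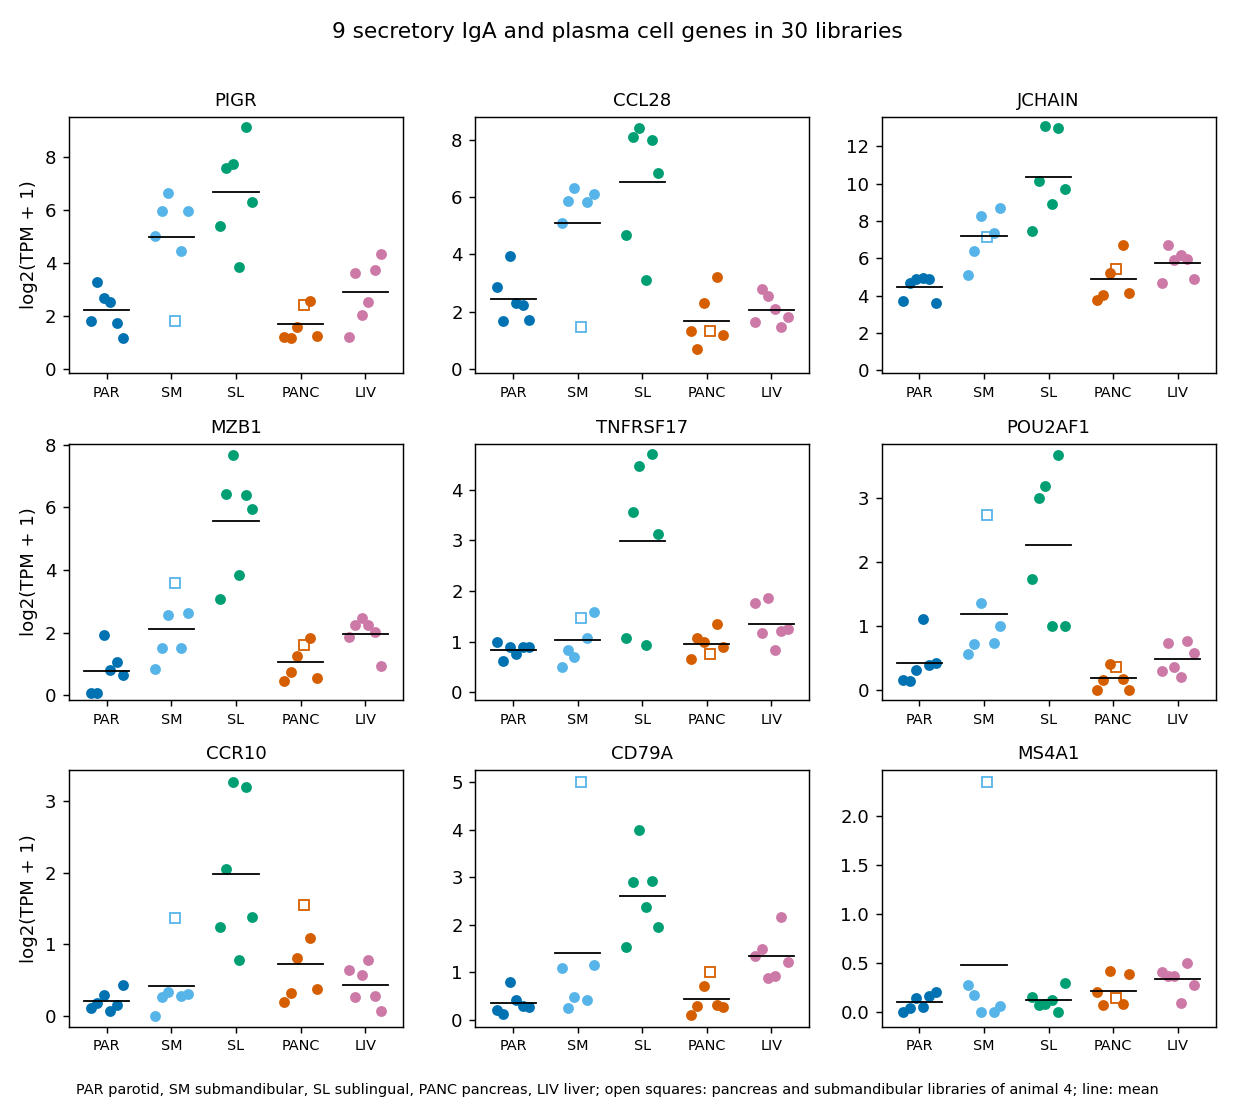
Level of each of the 9 genes as log2(TPM + 1), with 6 libraries (points, ordered by animal) and their mean (line) for each tissue. PIGR and CCL28 are high in sublingual and submandibular gland, JCHAIN and MZB1 rise mainly in sublingual gland, and MS4A1 reached 1 TPM in 1 library, the submandibular library of animal 4 (open square).

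JCHAIN (NCBI gene 706650) reached the highest levels of the 9 genes. The 6 sublingual libraries held 173, 1125, 8866, 475, 8160 and 834 TPM in animals 1 to 6, and animals 3 and 5 were about an order of magnitude above the rest. Submandibular values ran from 33.9 through a median of 154 to 420.2 TPM. Every library of parotid, pancreas and liver was at or below 106 TPM, and medians were 26.7, 26.7 and 60.2 TPM. The sublingual range lay wholly above those 3 tissues and overlapped only that of submandibular gland.

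JCHAIN differed between sublingual gland and each other tissue in 6 of 6 animals. It was higher than in pancreas by 5.48 ± 0.57 (limma adjusted p = 1.2e-07) and higher than in liver by 4.65 ± 0.57 (adjusted p = 2.2e-07). The difference of submandibular from sublingual gland was -3.20 ± 0.57 (adjusted p = 0.00042), and it passed the threshold in all 17 alternative settings, with values from -3.64 to -1.83. Submandibular gland was higher than pancreas by 2.28 ± 0.57 (adjusted p = 0.0084) and higher than liver by 1.45 ± 0.57 (adjusted p = 0.036). The first lost its call without animal 6 (1.82, adjusted p = 0.065). The second lost it without animal 3 (1.26, adjusted p = 0.10), animal 5 (1.45, adjusted p = 0.056) or animal 6 (0.98, adjusted p = 0.19), and in a fit without the animal block (adjusted p = 0.0996).

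Parotid and submandibular gland differed little over the whole table, and JCHAIN was the only one of the 9 genes past the threshold between them. Its difference was -2.72 ± 0.57 (limma adjusted p = 0.023), the 2 groups did not overlap, and only 29 of 13550 genes, or 0.214%, were lower in parotid in that comparison. The call was lost without animal 1, 2, 3, 5 or 6 in turn, where the adjusted p was 0.064, 0.098, 0.13, 0.063 and 0.28, while the difference stayed between -2.98 and -2.24. It was also lost without the animal block (adjusted p = 0.18) and in a fit to the 12 libraries of the 2 glands (adjusted p = 0.23).

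MZB1 (NCBI gene 693572) was low outside the sublingual gland. Its values there were 7.34, 84.9, 201, 13.4, 82.3 and 60.9 TPM in animals 1 to 6. Liver had a median of 3.40 TPM, submandibular gland 3.38 TPM, pancreas 1.02 TPM and parotid 0.648 TPM. Sublingual gland was above pancreas by 4.48 ± 0.48 (limma adjusted p = 2.1e-07) and above liver by 3.58 ± 0.48 (adjusted p = 1.1e-06). Submandibular gland was below sublingual gland with a difference of -3.44 ± 0.48 (adjusted p = 3.4e-05), again in 6 of 6 animals, and the highest submandibular value was the 10.9 TPM of animal 4. Unlike JCHAIN, PIGR and CCL28, MZB1 did not pass the threshold between submandibular gland and pancreas (1.04 ± 0.48, adjusted p = 0.19), although it did under trimmed-mean scaling (1.39, adjusted p = 0.047). Whether MZB1 differs from the other 3 genes in that respect was tested only through its ratio to PIGR, given below. Parotid was lower than liver by a difference of -1.20 ± 0.48 (adjusted p = 0.036), a call lost in 7 of the 17 alternatives, among them the fits without animal 1, 2 or 5 (adjusted p = 0.085, 0.13 and 0.065), the fit without the animal block (adjusted p = 0.065) and trimmed-mean scaling (-0.53, adjusted p = 0.39).

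The abundant plasma cell genes and PIGR were low in parotid, pancreas and liver relative to the sublingual mean. JCHAIN in parotid, pancreas and liver stood at 0.691, 1.17 and 1.79% of it, MZB1 at 1.18, 1.66 and 4.16%, and PIGR at 2.31, 1.40 and 4.78%. For JCHAIN the sublingual mean was 3272 TPM and the median 980 TPM, so shares of the median would be larger. The less abundant genes kept larger shares of their sublingual mean in parotid, pancreas and liver. TNFRSF17 stood at 7.23, 8.67 and 14.6%, CCR10 at 4.01, 19.0 and 9.40% and POU2AF1 at 7.38, 2.79 and 8.18%. For scale, 6 acinar genes of the pancreas were listed in the 4 other tissues at 0.621 to 1.46% of their pancreas mean, and 7 hepatocyte genes in the 3 glands at 0.437 to 1.08% of their liver mean and in pancreas at 0.714 to 11.8% of it. Whether RNA or reads of another tissue enter these low values was not tested. Fewer plasma cells in a section and less RNA of these genes per cell cannot be told apart in bulk tissue.

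The 3 remaining plasma cell genes were low throughout and rose in the same gland. TNFRSF17 was 1.09, 10.8, 21.0, 0.924, 25.0 and 7.71 TPM in the sublingual libraries and between 0.408 and 2.62 TPM in the other 24. Here animals 1 and 4 fell inside the range of the other tissues. POU2AF1 was 2.35, 7.02, 8.06, 1.01, 11.7 and 1.01 TPM in sublingual gland, and its highest value elsewhere was 5.67 TPM in the submandibular library of animal 4. CCR10 was 1.36, 3.16, 8.63, 0.723, 8.15 and 1.62 TPM in sublingual gland and at most 1.92 TPM elsewhere. POU2AF1 reached 1 TPM in only 4 of the 24 other libraries and CCR10 in 3, so both entered the test through the gland in which they are high, and their tests are printed with that limit.

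Against pancreas, sublingual gland was higher by 2.02 ± 0.42 for TNFRSF17 (limma adjusted p = 0.00097), 2.08 ± 0.37 for POU2AF1 (adjusted p = 0.00018) and 1.27 ± 0.31 for CCR10 (adjusted p = 0.0061). The CCR10 call was lost without animal 2 (1.17, adjusted p = 0.056) and without animal 3 (1.03, adjusted p = 0.054). Submandibular gland was lower than sublingual gland for each, at -1.95 ± 0.42 (adjusted p = 0.0017), -1.08 ± 0.37 (adjusted p = 0.031) and -1.56 ± 0.31 (adjusted p = 0.0011). For POU2AF1 this turned on single animals: the adjusted p was 0.13, 0.19, 0.15 and 0.23 without animal 1, 2, 3 or 5, and the difference was -1.44 (adjusted p = 0.0010) without the 2 libraries of animal 4. With trimmed-mean scaling POU2AF1 no longer passed between these glands (-0.59, adjusted p = 0.11). None of the 3 genes passed between submandibular gland and pancreas, at 0.07, 1.00 and -0.30, but POU2AF1 did under trimmed-mean scaling (1.20, adjusted p = 0.0014).

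CD79A and MS4A1, the 2 genes tied to B cells rather than to secretion, went separate ways. CD79A was 1.90, 6.49, 14.9, 4.18, 6.56 and 2.85 TPM in the sublingual libraries, 0.842 to 3.51 TPM in liver and below 1 TPM in every parotid and pancreas library. In submandibular gland 5 libraries were between 0.177 and 1.22 TPM and that of animal 4 was 31.2 TPM, the highest of all 30. CD79A was higher in sublingual gland than in pancreas by 2.17 ± 0.50 (limma adjusted p = 0.0032), and lower in parotid than in sublingual gland, with a difference of -2.26 ± 0.50 (adjusted p = 0.0014). Its difference between sublingual gland and liver was 1.27 ± 0.50 (adjusted p = 0.055), and 1.27 ± 0.29 (adjusted p = 0.00087) without the 2 libraries of animal 4. Between submandibular and sublingual gland CD79A moved from -1.21 (adjusted p = 0.071) to -1.98 (adjusted p = 2.8e-05) when those libraries were left out. Its difference of submandibular gland from liver turned from 0.06 (adjusted p = 0.93) to -0.70 (adjusted p = 0.045).

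MS4A1 was at most 0.421 TPM in 29 libraries, with a sublingual median of 0.0730 TPM below the liver median of 0.291 TPM. Its single higher value was 4.12 TPM, again in the submandibular library of animal 4. It did not pass the filter and was not tested. The summed TPM of 14 other listed B cell genes, which include neither CD79A nor MS4A1, was 6.89 to 24.6 in sublingual gland, 13.2 to 43.7 in pancreas and 16.6 to 48.4 in liver. In parotid it was 3.32 to 8.41 TPM, with a median of 4.97 TPM against 11.3 TPM in sublingual gland. In submandibular gland it was 3.19 to 4.99 TPM in 5 libraries and 149.5 TPM in that of animal 4, where the sum of 10 T cell genes was 109 TPM against at most 4.47 TPM in the other 5 and 8 macrophage genes summed to 1331 TPM. Of the 4 B cell genes tested, limma called 0 between sublingual gland and pancreas, beside 1887 of all 13550 genes. Of those 4, 2 had an unadjusted limma p under 0.05. After trimmed-mean scaling 1 was called higher and 1 lower, beside 1456 and 1392 of all 13005 genes. CD79B, 1 of the 4, was lower in parotid than in sublingual gland (-1.45, limma adjusted p = 0.023). The part of lymphoid tissue in the values of that submandibular library was not tested.

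**Figure D2:**
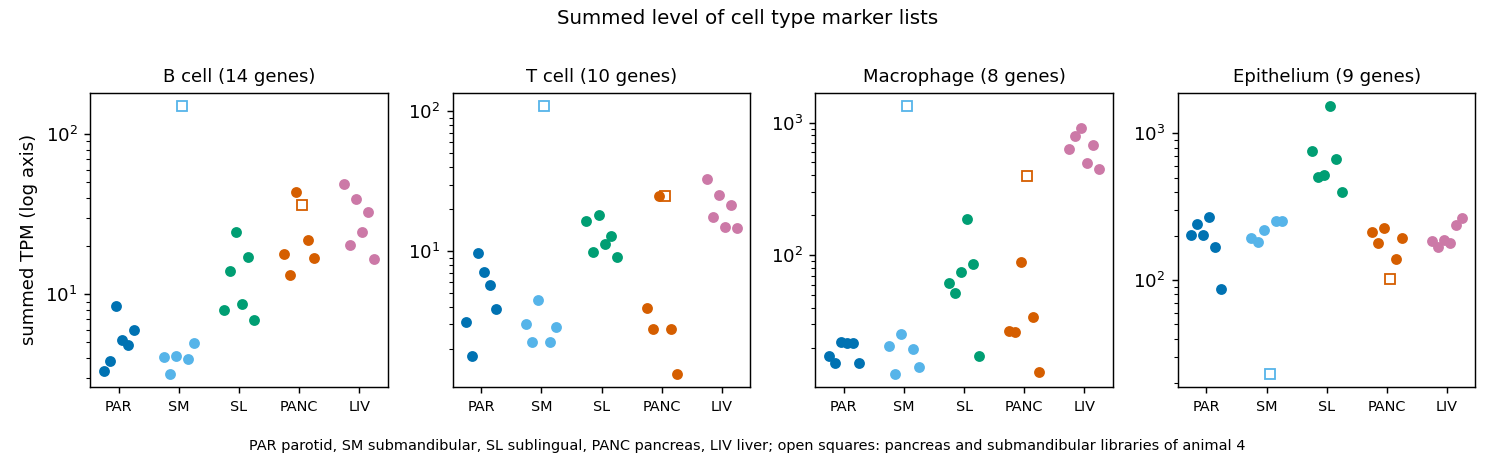
Summed TPM of 4 marker lists in each library (points, log axis), by tissue. The submandibular library of animal 4 (open square) is highest for B cell, T cell and macrophage genes and lowest for epithelial genes, and sublingual libraries lead only for the epithelial list.

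Counts over the 9 genes were read against the share of all tested genes called in the same direction, since TPM shifts many genes at once. For comparisons with sublingual gland the counts leave out POU2AF1 and CCR10, which passed the filter through that gland, and cover the 6 genes that reached 1 TPM in at least 6 libraries outside it. In sublingual gland against pancreas 6 of the 6 were higher, where 10.4% of all genes were, and the median difference was 4.66 over the 6 genes and 0.23 over all genes. In sublingual gland against liver 5 of 6 were higher, against 12.8% of all genes, with medians of 3.67 and -0.10. In parotid against sublingual gland 6 of 6 were lower, against 40.6% of all genes, with medians of -4.26 and -0.70. Of these 17 calls, only that of TNFRSF17 against parotid was lost in any alternative in which the gene was tested, when the 100 most abundant genes were left out of the total (-1.39, limma adjusted p = 0.051).

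Submandibular gland gave fewer calls. Against pancreas 3 of 8 genes were higher, PIGR, CCL28 and JCHAIN, where 2.25% of all genes were, and against liver the same 3 were higher, where 5.68% were. Median differences were 1.02 and 0.42 over the 8 genes and -0.33 and -0.70 over all genes. In submandibular against sublingual gland 3 of the 6 genes that passed the filter outside sublingual gland were lower, JCHAIN, MZB1 and TNFRSF17, where 27.2% of all genes were lower, and the medians were -1.82 and -0.56. The 3 genes not past the threshold were PIGR, CCL28 and CD79A.

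The other comparisons gave few calls. With limma, parotid against pancreas gave 0 of 8 in either direction, against 15.8% of all genes, and 0 of 8 also at an unadjusted p under 0.05. Pancreas against liver likewise gave 0 of 8, against 30.4% of all genes, and 0 of 8 without adjustment. Without the submandibular and pancreas libraries of animal 4, 2 of 8 were lower in pancreas, beside 5560 of all 13550 genes. In parotid against liver 1 of 8, MZB1, was lower, against 53.4% of all genes. The comparisons with sublingual gland share its 6 libraries, so their counts are not separate evidence.

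Scaling changed the counts over all genes and moved the genes described here with them. In submandibular against sublingual gland 102 genes were higher and 3685 lower in TPM, and 885 were higher and 1114 lower after trimmed-mean scaling, which brought the median of all genes from -0.56 to -0.01. The corresponding counts for sublingual gland against pancreas were 1412 and 475 in TPM and 1456 and 1392 after scaling, and for parotid against sublingual gland 121 and 5504 against 1139 and 1234. JCHAIN and MZB1 kept their calls between submandibular and sublingual gland after this scaling, at -2.37 (limma adjusted p = 0.011) and -2.79 (adjusted p = 0.00064). The unscaled differences were -3.20 and -3.44. PIGR was -0.77 (adjusted p = 0.49) and CCL28 -0.47 (adjusted p = 0.71) on that scale, against -1.69 and -1.40 without it.

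**Figure D3:**
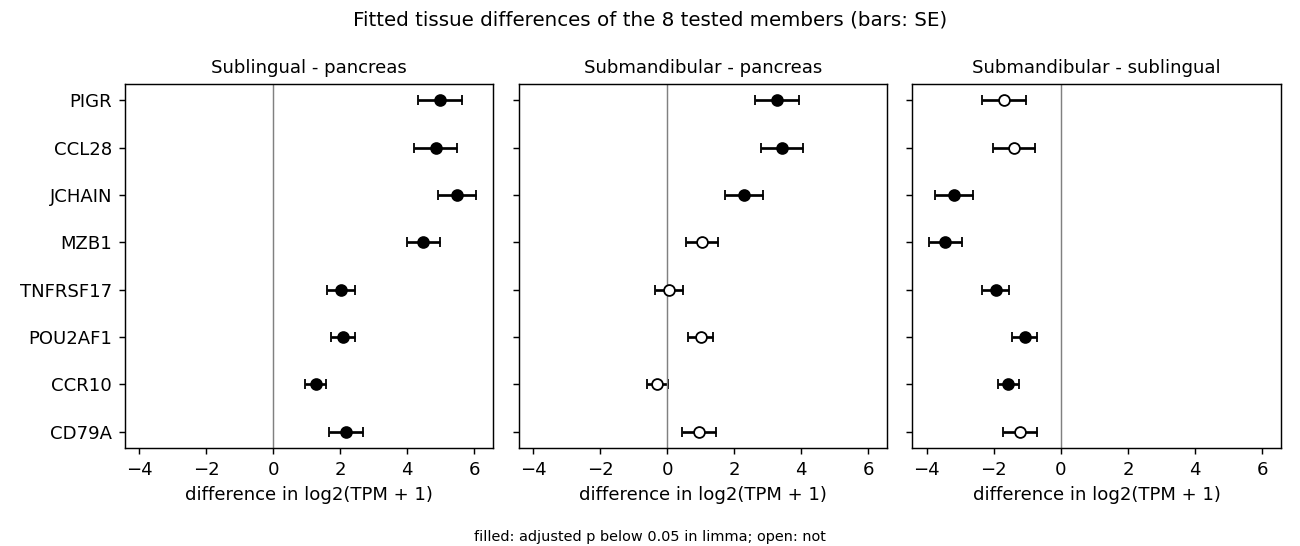
Fitted differences in log2(TPM + 1) with their SE for the 8 tested genes in 3 comparisons, with filled points past the threshold. Against pancreas all 8 points are filled for sublingual gland and 3 for submandibular gland, and between those glands PIGR, CCL28 and CD79A are open. POU2AF1 and CCR10 passed the filter through sublingual gland.

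The balance between plasma cell and epithelial genes was then compared directly, through the ratio of JCHAIN to PIGR within a library. In plain TPM, where scaling cancels, the median ratio was 12.5 in sublingual gland, 12.2 in pancreas, 12.1 in liver, 5.72 in parotid and 4.95 in submandibular gland. The submandibular libraries spread most widely, from 1.06 in animal 1 to 56.6 in animal 4, the latter far above the next value of 7.84. Sublingual ratios ran from 4.12 to 41.8.

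Within-animal differences of log2(TPM + 1) between JCHAIN and PIGR, in which the added 1 draws the ratio of low values toward 0, were tested two-sided for 10 tissue pairs by flipping their signs (an exact permutation test), where 6 animals allow no p below 0.03125. The ratio was lower in parotid than in sublingual gland by a mean difference of -1.46 ± 1.18 (SD, n = 6, exact permutation p = 0.03125, adjusted 0.16) and lower in parotid than in pancreas by -0.95 ± 0.45 (exact permutation p = 0.03125, adjusted 0.16), in 6 of 6 animals each. Submandibular gland was below sublingual gland by -1.51 ± 1.41 (n = 6, exact permutation p = 0.0625, adjusted 0.21), the exception being animal 4. Sublingual gland and pancreas differed by 0.51 ± 1.12 (n = 6, exact permutation p = 0.41). After adjustment 0 of 10 pairs passed, and 2 of 10 did without it. Adjusted values could pass only if at least 7 pairs reached the smallest p, so the design limits this test.

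The ratio of MZB1 to PIGR gave no pair below 0.05 even without adjustment. Its largest differences were submandibular gland against pancreas, -2.24 ± 2.46 (n = 6, exact permutation p = 0.094, adjusted 0.42), against liver, -1.92 ± 2.71 (exact permutation p = 0.19, adjusted 0.47), and against sublingual gland, -1.75 ± 2.19 (exact permutation p = 0.094, adjusted 0.42). In 5 of the 6 submandibular libraries MZB1 differed from PIGR by -4.46 to -2.96 on the log2(TPM + 1) scale, while in that of animal 4 the difference was 1.77.

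**Figure D4:**
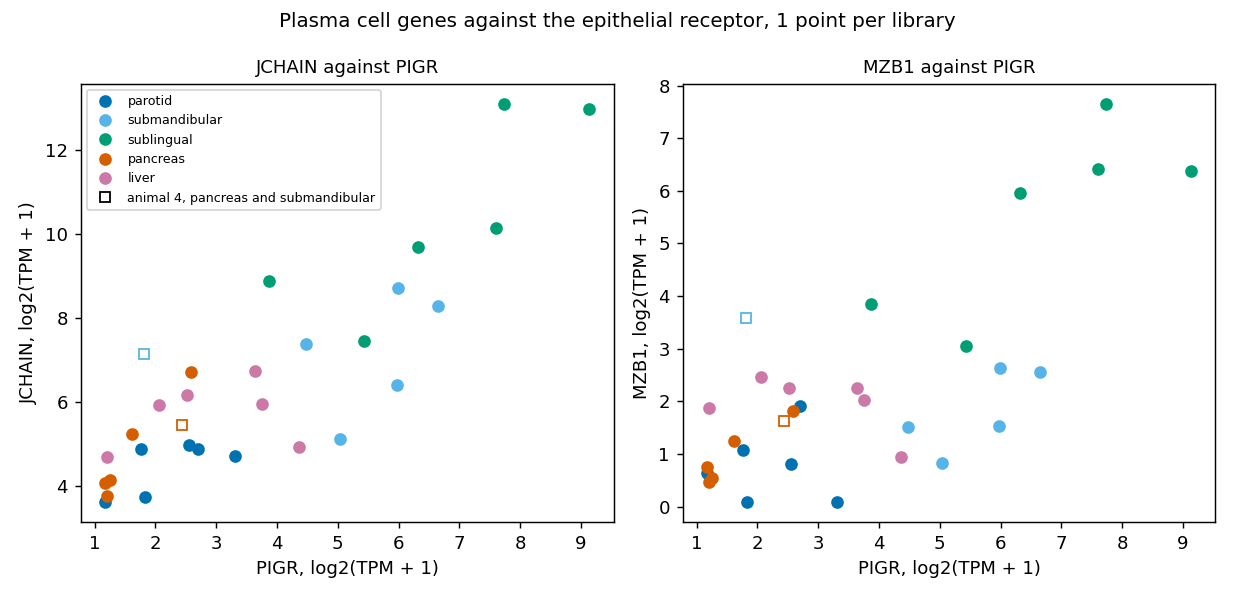
JCHAIN (left) and MZB1 (right) against PIGR, as log2(TPM + 1), with 1 point per library coloured by tissue. Sublingual libraries lie toward the upper right, but that of animal 4 has lower PIGR than 5 submandibular libraries. That of animal 1 has JCHAIN within the submandibular range. The 5 submandibular libraries lie at high PIGR with low MZB1. The submandibular library of animal 4 (open square) has low PIGR, JCHAIN within the range of its gland and the highest MZB1 of its gland.

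Constant regions of antigen receptors appear in the table only under LOC identifiers. RefSeq's annotation of T2T-MMU8v2.0 lists 12 genes of the type C_region, the constant regions of antigen receptors, of which 11 are in the abundance table and 9 passed the filter. It does not say which chain or isotype each encodes, nor whether it belongs to an antibody or to a T cell receptor. They are therefore described by identifier. Their place is given by the last named protein-coding gene listed before them on the same chromosome, passing over LOC genes. Reads of near-identical constant regions may be divided among these rows in a way that is not given in the sources used here, which makes each single value uncertain.

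LOC720839, the first of 5 such genes in the table that are listed after TMEM121, was among the most abundant. Its sublingual level was 331, 4795, 21386, 533, 10176 and 4405 TPM in animals 1 to 6, against means of 292 TPM in submandibular gland, 95.5 TPM in liver, 57.9 TPM in pancreas and 32.4 TPM in parotid. Sublingual gland exceeded pancreas by 6.39 ± 0.61 (limma adjusted p = 3.8e-08), and submandibular gland exceeded pancreas by 2.37 ± 0.61 (adjusted p = 0.011). LOC107000555, which follows GNAZ, had a sublingual mean of 5204 ± 4396 TPM (SD, n = 6) and a submandibular mean of 184 ± 145 TPM, and these ranges did not overlap. It was lower in submandibular than in sublingual gland, with a difference of -4.63 ± 0.51 (adjusted p = 1.5e-06), and -3.79 (adjusted p = 0.00038) after trimmed-mean scaling.

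Less abundant rows of the same kind were also highest in sublingual gland. LOC711872 averaged 273 TPM in sublingual gland, 25.2 TPM in liver, 19.0 TPM in submandibular gland and 4.07 TPM in pancreas, and LOC106995637 averaged 17.9 TPM in sublingual gland and under 1 TPM in each other tissue. LOC709066, which follows ANKRD36C, averaged 7.66 TPM in sublingual gland and also under 1 TPM elsewhere. Each was higher in sublingual gland than in pancreas, by 5.23, 3.33 and 2.21 (limma adjusted p = 4.2e-08, 1.3e-06 and 9.9e-05). LOC106995637 and LOC709066 reached 1 TPM in fewer than 6 libraries outside sublingual gland and passed the filter through that gland, so their tests carry the same limit as those of POU2AF1 and CCR10.

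LOC708891, another gene after TMEM121, was different in liver. Its sublingual mean was 331 ± 242 TPM and its liver mean 138 ± 84.9 TPM (SD, n = 6), and these did not differ past the threshold (1.29 ± 0.72, limma adjusted p = 0.19). It was lower in pancreas than in liver, with a difference of -2.43 ± 0.72 (adjusted p = 0.011). Its submandibular values ran from 6.89 to 503 TPM, the highest again in animal 4. LOC114670307, after GAB4, averaged 3.55 TPM in sublingual gland and did not differ from pancreas past the threshold (0.85, adjusted p = 0.13).

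The rows listed after AMPH and PRSS2 were highest in liver by median. LOC720538, which follows AMPH, averaged 0.737 TPM in sublingual gland against a liver mean of 1.98 TPM, and LOC114677140, which follows PRSS2, 3.35 and 5.01 TPM. Neither passed the threshold between sublingual gland and pancreas (limma adjusted p = 0.84 and 0.25). LOC114677140 was lower in parotid than in sublingual gland (-1.08, adjusted p = 0.043). Without the submandibular and pancreas libraries of animal 4 it was also higher in sublingual gland than in pancreas (1.10, adjusted p = 0.0024) and lower in submandibular than in sublingual gland (-1.24, adjusted p = 0.00041). LOC106999341 was at 0 in 29 libraries and LOC114679689 averaged at most 0.529 TPM in any tissue, and neither was tested.

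**Figure D5:**
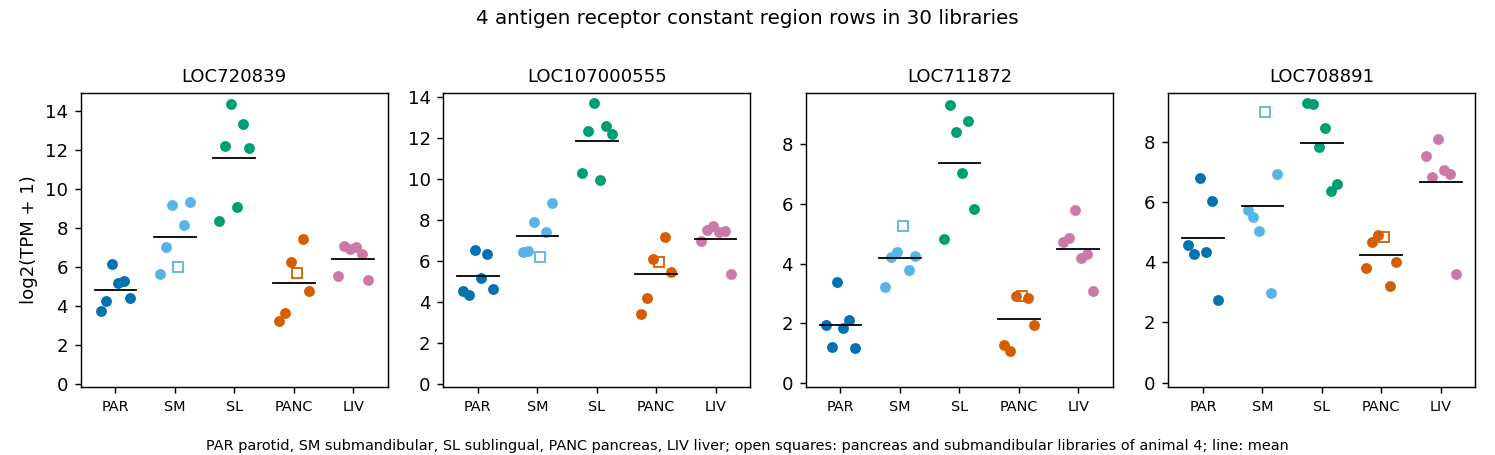
Level of 4 constant region rows as log2(TPM + 1), with 6 libraries (points) and their mean (line) per tissue. LOC720839, LOC107000555 and LOC711872 are highest in sublingual gland, while LOC708891 overlaps widely between sublingual gland and liver.

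Other plasma cell genes were taken from a list of 16, of which 15 were in the table and 10 were tested. Which genes of this and the other lists passed the filter through sublingual gland was not examined. Their counts against that gland may therefore carry the limit given for POU2AF1 and CCR10. In sublingual gland against pancreas 4 were higher, where 10.4% of all genes were, and 0 lower. These were SDC1, the surface proteoglycan CD138, by 1.95 (limma adjusted p = 0.034), PIM2, a survival kinase, by 1.81 (adjusted p = 0.0015), TNFRSF13B, the receptor TACI, by 1.64 (adjusted p = 0.0039) and IRF4, a transcription factor of plasma cell identity, by 1.13 (adjusted p = 0.0050). The median difference over the 10 tested genes was 0.77, against 0.23 for all genes. The same 4 genes were the 4 that were lower in submandibular than in sublingual gland, at -2.15, -1.70, -1.41 and -1.02. That is 4 of 10, where 27.2% of all genes were lower. When the 100 most abundant genes were left out of the total, SDC1 was no longer past the threshold against pancreas (1.39, adjusted p = 0.091), and of the 4 differences between the glands only that of IRF4 passed (-1.13, adjusted p = 0.028). SDC1 also failed to pass between the glands after trimmed-mean scaling (-1.42, adjusted p = 0.096).

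Several genes of that list are also active in other secretory cells. XBP1, a transcription factor of the secretory pathway, averaged 418 TPM in pancreas and 268 TPM in sublingual gland, and DERL3, of endoplasmic reticulum degradation, 156 and 66.8 TPM. SDC1 averaged 113 TPM in liver and 29.4 TPM in sublingual gland, and was lower in sublingual gland by a difference of -2.05 (limma adjusted p = 0.012). Against liver the list had 6 higher and 2 lower in sublingual gland, where 12.8% of all genes were higher and 18.7% lower. In parotid against sublingual gland 7 of 10 were lower, against 40.6% of all genes.

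A list of 17 genes for IgA cell homing and survival had 9 tested. Against pancreas 2 were higher in sublingual gland, where 10.4% of all genes were: CXCR4, the chemokine receptor for CXCL12, by 1.46 (limma adjusted p = 0.0072), and ITGB7, the beta subunit of a mucosal homing integrin, by 1.07 (adjusted p = 0.023). The same 2 and CCL25, the ligand of the gut homing receptor CCR9, were lower in submandibular than in sublingual gland, at -1.33, -0.87 and -1.47, which is 3 of 9 where 27.2% of all genes were lower. These 3 calls held after trimmed-mean scaling and were lost when the 100 most abundant genes were left out of the total (-0.60, -0.73 and -0.71 for CXCR4, CCL25 and ITGB7). CCL25 was highest in liver, with a mean of 12.5 TPM against 6.30 TPM in sublingual gland. The median over the 9 genes was 0.54 against pancreas.

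The epithelial machinery that carries PIGR was described by 9 genes of transcytosis, all tested. In sublingual gland 2 of 9 were higher than in pancreas, where 10.4% of all genes were. They were RAB25, a GTPase of apical recycling endosomes, by 2.80 (limma adjusted p = 5.6e-05), and RAB11A, of recycling endosomes, by 1.59 (adjusted p = 0.0092). In submandibular gland against pancreas, where PIGR was higher, limma called 0 of 9 and 1316 of all 13550 genes. Of the 9 genes, 1 had an unadjusted limma p under 0.05. Against liver 4 were higher and 2 lower in sublingual gland, beside 12.8 and 18.7% of all genes. Lower than in sublingual gland were 4 in parotid and 3 in submandibular gland, beside 40.6 and 27.2% of all genes. RAB25 averaged 90.5 TPM in sublingual, 16.0 TPM in submandibular and 15.6 TPM in parotid gland, and 2.37 TPM in liver. RAB17, a GTPase of epithelial transcytosis, was highest in liver, at a mean of 119 TPM against 23.9 TPM in sublingual gland (-2.37 for sublingual gland against liver, adjusted p = 0.00025).

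Of 9 general epithelial markers tested, 4 were also higher in sublingual gland than in pancreas, where 10.4% of all genes were. Among them were CLDN4, a tight junction claudin, by 3.60 (limma adjusted p = 2.6e-06), and ELF3, an epithelial transcription factor, by 3.19 (adjusted p = 2.0e-05). KRT7, a keratin of simple epithelium, was higher by 2.62 (adjusted p = 2.4e-05). CLDN4, ELF3 and KRT7 were each higher in 6 of 6 animals. The summed level of the 9 tested markers was 399 to 1531 TPM in sublingual gland and 102 to 228 TPM in pancreas. In submandibular gland against pancreas limma called 0 of the 9 and 1316 of all 13550 genes, and 2 of the 9 had an unadjusted p under 0.05. The part of epithelial content in the PIGR difference was not tested.

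The genes most like PIGR and JCHAIN over all 30 libraries were found by Pearson correlation of log2(TPM + 1), a description of libraries that share tissue and animal. PIGR was most like MUC7, a small salivary mucin (r = 0.95), CCL28 (0.92), ZG16B, a secreted lectin-like protein (0.91), and IL19, a cytokine (0.88), followed by GALNT5, TLX1, CAPN9 and EPHA7 (0.87 to 0.86). JCHAIN was rank 9 for PIGR, MZB1 rank 73 and CD79A rank 629. JCHAIN was most like MZB1 (0.93), CRISP3, a secreted protein of saliva (0.91), ISL2 and TMC5 (0.90 each), ENPP3, LCN2, an antimicrobial siderophore binder, IL19 and C4H6orf58 (0.88 to 0.87), with PIGR at rank 12. Of these, MUC7 averaged 9738 TPM in sublingual and 2877 TPM in submandibular gland, whereas CRISP3 averaged 1568 and 42.9 TPM.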

How the data were processed

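The authors deposited 1 table of TPM values with 21292 genes and 30 libraries, and kallisto is named in the submitters' processing notes. Its version, the transcriptome and the summing of transcripts to genes are not given in the sources used here. Per the labels' protocols, RNA came from 3 sections of 30 µm and was sequenced as paired reads of 150 bases. 0 per-sample columns were left unused.

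A model on log2(TPM + 1) was fitted in R 4.3.3 (limma 3.58.1) to the 13550 genes that reached 1 TPM in 6 or more libraries, with a variance trend, tissue and animal as terms and all 30 libraries, for 10 tissue pairs. Fold changes on this scale understate those of low genes. The animal block follows the labels, which give the same animal in every tissue. Deviations from tissue means correlated by 0.161 on average within an animal and by -0.0186 between animals. The ratios were tested by sign flips over 64 patterns. The fit was tested on simulated data. No 2 libraries were identical (highest correlation 0.979).

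Named genes were all 9 listed genes, every constant region row, the 8 genes most like PIGR and JCHAIN, and from each other list up to 4 called genes with the largest change; results of some list genes are not reported here. The genes and lists were chosen with earlier results of these data known. Names came from RefSeq T2T-MMU8v2.0, in which 19177 symbols (90.1%) were found. Its match to the deposited table's build is not known, so no coordinates are given. Alternatives were no animal block, the 12 libraries of a pair, trimmed-mean scaling (30% of log ratios and 5% of levels trimmed), rescaling without the 100 most abundant genes, no filter, a filter of 5 TPM, a pseudocount of 0.1, no variance trend, and leaving out animals or single libraries.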

Additional observations from a re-analysis of the deposited data

Results flagged for a closer look

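In each tissue the 6 values of each of the 9 genes were examined for a single library far from the other 5, in 45 sets, of which chance alone would pick about 2.25. In all, 6 were picked, each in animal 4. In submandibular gland POU2AF1 was 5.67 TPM against 0.486 to 1.57 TPM in the other 5 libraries, CCR10 was 1.58 TPM against 0 to 0.255 TPM, CD79A was 31.2 TPM against 0.177 to 1.22 TPM and MS4A1 was 4.12 TPM against 0 to 0.212 TPM. In the same library CCL28 was low, at 1.74 TPM against 32.9 to 78.2 TPM. In parotid POU2AF1 was 1.17 TPM against 0.108 to 0.346 TPM.

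Of 90 comparisons of a gene and a tissue pair, 1 was picked out because the sexes moved opposite ways. Elsewhere the mean changes of the sexes could also differ in sign with animals of a sex divided, as for CCL28 in parotid against pancreas. For PIGR in parotid against pancreas, all 4 females were higher in parotid, by a mean of 0.99 on the log2(TPM + 1) scale, and both males were lower, with a mean of -0.45, a gap of 1.45 that was not tested.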

How the results depend on the processing

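Of 80 gene and pair results, 36 were past the threshold. None of the 36 changed direction in the 17 alternatives. The 36 and the counts below include calls of POU2AF1 and CCR10 against sublingual gland, and both genes passed the filter through that gland. Calls over all genes moved with the setting too. In submandibular gland against pancreas 305 of 13550 were higher in the main fit and 584 of 13550 with the 12 libraries. The number was 1084 of 13005 with trimmed-mean scaling and 1446 of 15809 on leaving out the top 100 genes. Numbers of the 9 genes past the threshold moved by over 1.5-fold as follows. For submandibular gland against pancreas (3), they were 5 with the 12 libraries of the pair, 5 with trimmed-mean scaling and 6 on leaving out the top 100 genes. For sublingual gland against pancreas (8), against liver (7) and parotid against sublingual gland (8), a filter of 5 TPM gave 4 each, as only 4 of the genes then remained tested. For submandibular against sublingual gland (5) it gave 3, trimmed-mean scaling 3, leaving out the top 100 genes 3, the 12 libraries 2, and leaving out the sublingual library of animal 4 gave 8. Leaving out 1 animal in turn gave 4 to 8 there. Over all genes, calls in either direction between these glands were 3787 of 13550 in the main fit and 666 with the 12 libraries. They were 1999 of 13005 with trimmed-mean scaling and 3862 of 15809 on leaving out the top 100 genes. Without the sublingual library of animal 4 they were 4837 of 13550, and on leaving out 1 animal 1281 to 8865. For submandibular gland against liver (3), leaving out the top 100 genes gave 5 and leaving out 1 animal 1 to 4. Calls over all genes were 6876 of 13550 in the main fit and 7679 of 15809 without the top 100 genes. On leaving out 1 animal they were 4908 to 9905 of 13550. For pancreas against liver (0), the 12 libraries gave 2, a pseudocount of 0.1 gave 1, leaving out the 2 libraries of animal 4, with or without the parotid library of animal 6, gave 2, and leaving out 1 animal 0 to 2. Of all 13550 genes the main fit called 4114, the 12 libraries 3964 and the pseudocount of 0.1 4187. Leaving out the 2 libraries of animal 4 gave 6609, and leaving out 1 animal 2817 to 6575.

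For parotid against liver (1), the fit without the replicate block gave 0, trimmed-mean scaling, leaving out the top 100 genes and no filter 0 each, the 12 libraries 4, a pseudocount of 0.1 gave 3, leaving out the 2 libraries of animal 4, those and the parotid library of animal 6, or the sublingual library of animal 4 gave 2 each, and leaving out 1 animal 0 to 2. Calls over all genes were 7856 of 13550 in the main fit, 5733 of 13005 with trimmed-mean scaling and 9579 of 13550 with the 12 libraries. On leaving out 1 animal they were 6288 to 9119 of 13550. For parotid against submandibular gland (1), the fit without the block gave 0, as did the 12 libraries and leaving out the top 100 genes. Leaving out the 2 libraries of animal 4 gave 3, those and the parotid library of animal 6 gave 2, the sublingual library of animal 4 gave 3, and leaving out 1 animal 0 to 3. Of all 13550 genes, 47 were called between these glands in the main fit and 0 with the 12 libraries. Without the 2 libraries of animal 4 it was 79, without its sublingual library 56, and on leaving out 1 animal 5 to 86. The block changed 3 calls in all, of JCHAIN and MZB1. CD79A in submandibular gland against liver was 0.06 and reversed to -0.70 without the 2 libraries of animal 4 and -0.70 without those and the parotid library of animal 6. Leaving out 1 animal in turn gave -0.75 to 0.42 for it, and a pseudocount of 0.1 gave -0.38. Causes of these shifts were not tested. The sublingual library was left out after the data had been seen. Ratio tests gave 0 pairs past the threshold in all alternatives run (pseudocount 0.1, unpaired, each animal left out), and with 5 animals the smallest p cannot pass. Read depth is unknown, so no counting error can be given for low values such as those of CCR10 and MS4A1.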
